A study of Mus musculus with 6 samples.

Results

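The genes described here are the 37 rows of the deposited count table that lie on the mitochondrial chromosome (MT), out of 57010 rows in all. They were taken by chromosome alone and comprise 13 protein-coding genes, 2 rRNA genes and 22 tRNA genes. The RNA came from NMCMs, which are primary neonatal mouse cardiomyocytes. They were isolated from C57BL/6 pups in the first days after birth and separated from cardiac fibroblasts by their slower attachment to the dish. All 6 libraries were labelled HO, the study's hypoxia model, and 3 received vehicle (HO + Vehicle, V1 to V3) while 3 received the plant sterol β-sitosterol (HO + β-SITO, T4 to T6). There was no normoxic group, and the dose and duration are not given in the labels. The labels do not say that the 3 libraries of a group were separate cultures, so the p-values measure the spread between these libraries, which may be technical. The library names of the treated group end in a letter C that those of the vehicle group lack, and treatment and whatever that letter marks cannot be told apart.

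The mitochondrial genome of mammals is a small circle with almost no spare sequence. Its proteins are all core subunits of the respiratory chain and ATP synthase, its rRNAs form the core of the mitochondrial ribosome, and its tRNAs read the mitochondrial code. Both strands are transcribed as long precursors, and the tRNAs that punctuate the genes are cut out to release the mRNAs and rRNAs between them, after which most mRNAs gain a short poly(A) tail. Every enzyme of this transcription, cutting, tailing and decay is encoded in the nucleus, and heart muscle is among the tissues richest in mitochondrial RNA.

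The tRNAs show how short these units are and how they differ in reading. The sequences of the 3 tRNAs that held most tRNA counts (mt-Tn for asparagine, mt-Tc for cysteine and mt-Tp for proline) and of the 2 with the largest fold changes (mt-Te for glutamate and mt-Tr for arginine) are printed 5′ to 3′ from the GENCODE vM21 transcripts (GRCm38), whose positions for all 37 genes were those of the deposited table. Capitals mark the anticodon.
mt-Tn: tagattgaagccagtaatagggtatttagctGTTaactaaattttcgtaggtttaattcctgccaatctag
mt-Tc: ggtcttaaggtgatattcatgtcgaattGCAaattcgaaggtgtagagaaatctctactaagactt
mt-Tp: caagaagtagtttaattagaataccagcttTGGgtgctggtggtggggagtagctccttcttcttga
mt-Te: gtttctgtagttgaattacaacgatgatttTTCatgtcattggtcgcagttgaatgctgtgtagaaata
mt-Tr: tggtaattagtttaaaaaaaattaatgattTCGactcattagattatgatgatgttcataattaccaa

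Protein-coding transcripts of the mitochondrial genome took a larger share of all counts in HO + β-SITO, and mitochondrial rRNA took a smaller one. The protein-coding share was 0.953, 0.869 and 0.964% in V1, V2 and V3 and 1.71, 2.06 and 2.10% in T4, T5 and T6. Every treated library lay above every vehicle library, and the group means were 0.929 ± 0.052% and 1.96 ± 0.21% (SD, n = 3), a ratio of 2.11. The rRNA share was 0.330, 0.303 and 0.336% with vehicle and 0.136, 0.133 and 0.134% with β-SITO, so that the treated mean was 0.417 of the vehicle mean and the groups did not overlap. The tRNA share was small throughout, at 0.0167 to 0.0188% with vehicle and 0.0239 to 0.0265% with β-SITO, again without overlap. All 37 genes together took 1.19 to 1.32% of the counts with vehicle and 1.87 to 2.26% with β-SITO.

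Within the mitochondrial counts the balance of classes shifted accordingly. Protein-coding genes held 73.0 to 73.3% of them in the vehicle libraries and 91.4 to 92.9% in the treated ones, while the rRNA part went from between 25.4 and 25.5% to between 5.95 and 7.29%. There were 2.87 to 2.89 protein-coding counts for each rRNA count with vehicle and 12.5 to 15.6 with β-SITO. These shares are sums over the genes described and carry no p-value. In bulk RNA, fewer cells of a type and less RNA per cell cannot be told apart.

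**Figure D1:**
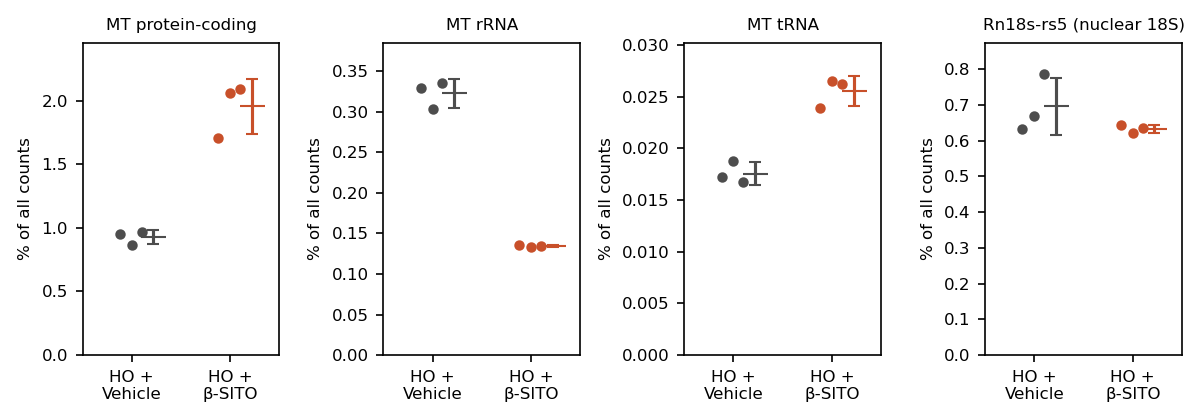
Share of all counts (%, linear axes from 0) taken by mitochondrial protein-coding, rRNA and tRNA genes and by the nuclear 18S rRNA row Rn18s-rs5, with 1 point per library and the mean ± SD of 3 libraries beside the points. The protein-coding share was 0.869 to 0.964% with vehicle and 1.71 to 2.10% with β-SITO, and the mitochondrial rRNA share moved the other way. For the share of Rn18s-rs5 the groups overlapped.

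Single genes were compared as CPM (counts scaled to a common library size by TMM, a factor that balances libraries on the bulk of their genes) with edgeR's quasi-likelihood test, Benjamini-Hochberg adjusted over the 14799 genes that passed the filter on low counts. A gene was called at an adjusted p under 0.05, and counted apart where it also changed more than 2-fold. Among the mitochondrial genes, 26 of 37 passed the filter, namely 12 protein-coding, 2 rRNA and 12 tRNA genes. Of the 12 protein-coding genes tested, 12 were higher in HO + β-SITO and 10 of them more than 2-fold, against 33.0% and 12.8% of all genes tested. Both rRNA genes were lower, 1 of them more than 2-fold, against 33.8% and 10.1% of all genes. Of the 12 tRNA genes tested, 9 were higher, 8 of them more than 2-fold, and none was lower at the threshold. All 23 called mitochondrial genes had groups that did not overlap, which was also so, with HO + β-SITO above, for 34.8% of all genes and, with it below, for 35.8%.

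**Figure D2:**
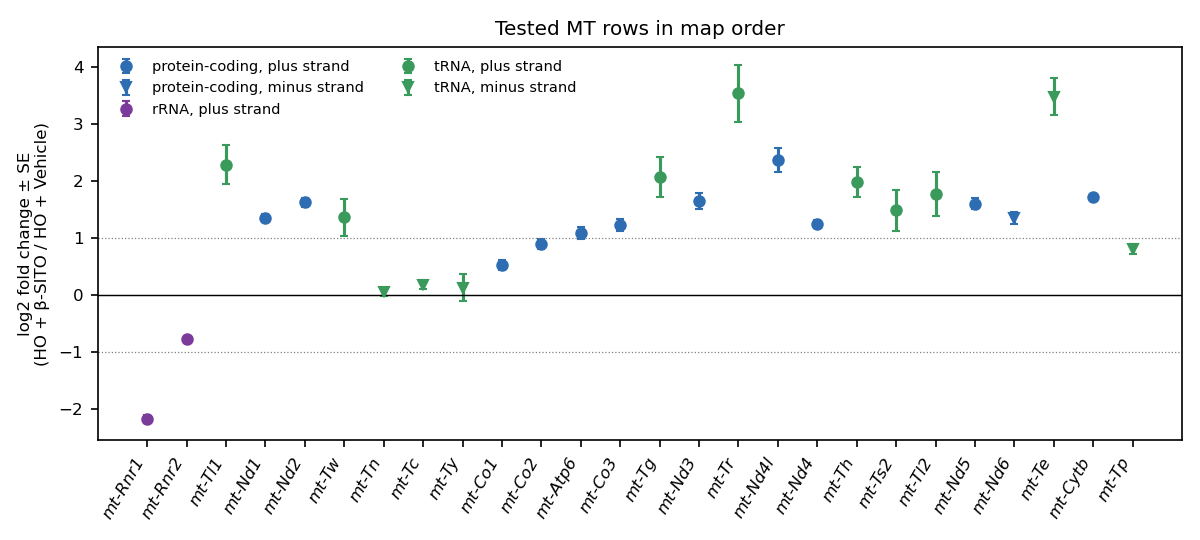
Log2 fold change (HO + β-SITO against HO + Vehicle, ± SE from edgeR) of the 26 tested mitochondrial genes in map order, coloured by class, with triangles for genes of the minus strand and dotted lines at a 2-fold change. The 2 rRNA genes lie below 0, the 12 protein-coding genes above it, and mt-Tn, mt-Tc and mt-Ty sit near 0 between mt-Nd2 and mt-Co1.

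Complex I of the respiratory chain passes electrons from NADH to ubiquinone, and 7 of its membrane subunits are mitochondrial. mt-Nd1 (bases 2751 to 3707, plus strand), a subunit of the quinone-binding module, had 559, 544 and 635 CPM with vehicle and 1482, 1477 and 1438 CPM with β-SITO. The treated libraries were alike and stood well clear of the vehicle ones, with a log2 fold change of 1.34 (SE 0.07, edgeR adjusted p = 8.34e-11). mt-Nd2 (bases 3914 to 4951) had 374, 326 and 382 CPM against 1025, 1153 and 1144 CPM, a log2 fold change of 1.62 (SE 0.07, edgeR adjusted p = 2.51e-11). mt-Nd4 (bases 10167 to 11544) had 404, 383 and 403 CPM against 859, 1012 and 945 CPM, a log2 fold change of 1.24 (SE 0.07, edgeR adjusted p = 2.19e-10).

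mt-Nd5 (bases 11742 to 13565), the largest complex I subunit of the mitochondrial genome and one of the proton-pumping arms, had 1002, 903 and 957 CPM with vehicle and 2324, 3095 and 3245 CPM with β-SITO. T4 was the lowest treated library by a wide gap but still above every vehicle library, and the log2 fold change was 1.60 (SE 0.10, edgeR adjusted p = 1.39e-09). mt-Nd6 (bases 13552 to 14070) is the one mRNA of the minus strand and overlaps the end of mt-Nd5 by 14 bases. It had 333, 299.5 and 303 CPM with vehicle and 625, 842 and 902 CPM with β-SITO, with the same low T4 and a log2 fold change of 1.34 (SE 0.10, edgeR adjusted p = 1.88e-08). Counts of mt-Nd6 for each count of mt-Nd5 were 0.316 to 0.332 with vehicle and 0.269 to 0.278 with β-SITO, without overlap. Whether the counting used strand is not given in the sources used here, so reads of mt-Nd6 and of the antisense precursor across it cannot be told apart.

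The small subunits mt-Nd3 and mt-Nd4l were counted at far lower levels. mt-Nd3 (bases 9459 to 9806) had 9.35, 6.27 and 8.18 CPM with vehicle and 27.9, 25.7 and 20.4 CPM with β-SITO, a log2 fold change of 1.64 (SE 0.14, edgeR adjusted p = 5.78e-08). mt-Nd4l (bases 9877 to 10173), which shares its last 7 bases with the start of mt-Nd4 on a common mRNA, had 2.02, 1.57 and 2.48 CPM against 7.81, 11.4 and 12.2 CPM. Its log2 fold change of 2.36 (SE 0.21, edgeR adjusted p = 7.29e-08) was the largest point estimate of the protein-coding genes, at the second lowest level of the 13. All 7 complex I genes were thus higher in HO + β-SITO, each more than 2-fold.

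mt-Cytb (bases 14145 to 15288) encodes cytochrome b, the one mitochondrial subunit of complex III. It had 547, 530.3 and 588 CPM with vehicle and 1747, 1871 and 1815 CPM with β-SITO. The 3 treated libraries differed little, T4 included, and the log2 fold change was 1.71 (SE 0.06, edgeR adjusted p = 1.98e-12).

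Complex IV, cytochrome c oxidase, reduces oxygen at a core built of COX1, COX2 and COX3. mt-Co1 (bases 5328 to 6872), the subunit with the oxygen-binding site, was the most abundant mitochondrial transcript in every library, at 6797, 6054 and 6879 CPM with vehicle and 7999, 10074 and 10327 CPM with β-SITO. T4 lay nearer to the vehicle libraries than to T5 and T6, without overlap. The log2 fold change of 0.53 (SE 0.09, edgeR adjusted p = 9.25e-05) was the smallest point estimate of the protein-coding genes, and it was 0.63 without T4. mt-Co2 (bases 7013 to 7696) had 18.5, 17.6 and 20.0 CPM against 38.5, 32.9 and 32.3 CPM, a log2 fold change of 0.89 (SE 0.09, edgeR adjusted p = 3.53e-07). mt-Co3 (bases 8607 to 9390) had 15.9, 18.2 and 21.1 CPM against 47.9, 41.6 and 38.8 CPM, a log2 fold change of 1.21 (SE 0.10, edgeR adjusted p = 5.85e-08). In both of these low genes T4 was the highest treated library, the reverse of its place in mt-Co1.

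ATP synthase has mitochondrial subunits from 2 overlapping genes on a common mRNA. mt-Atp6 (bases 7927 to 8607), part of the proton channel, had 8.27, 8.53 and 9.55 CPM with vehicle and 20.8, 18.6 and 16.4 CPM with β-SITO, a log2 fold change of 1.08 (SE 0.11, edgeR adjusted p = 4.47e-07). mt-Atp8 (bases 7766 to 7969), which overlaps mt-Atp6 by 43 bases, was the protein-coding gene that failed the filter. Its raw counts were 3, 4 and 2 with vehicle and 15, 13 and 8 with β-SITO, a ratio of 3.39 after scaling, with a 95% interval of 1.604 to 8.01 that covers counting error only.

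**Figure D3:**
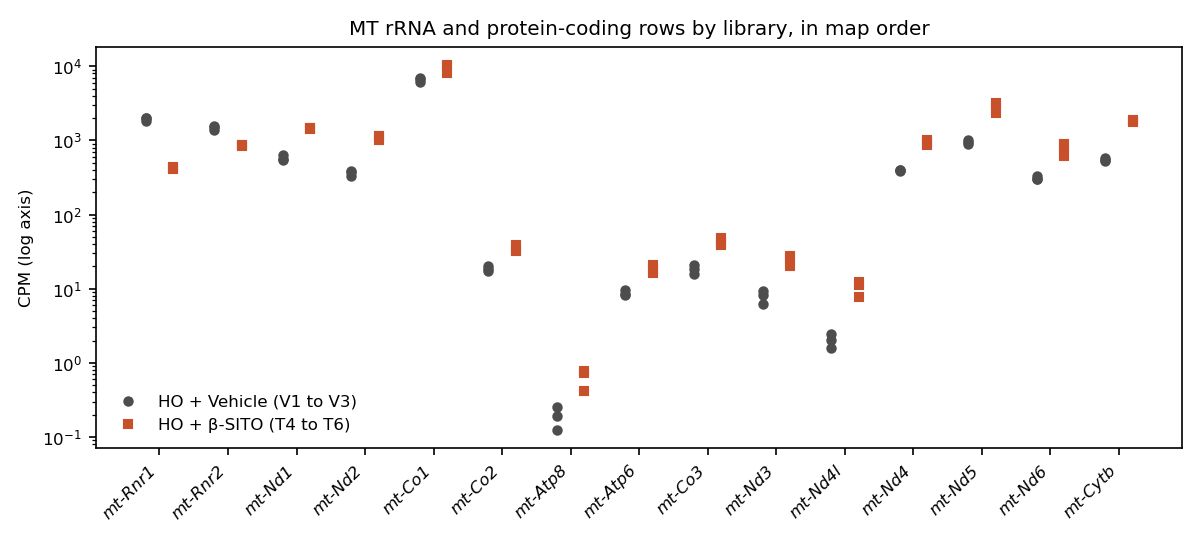
CPM on a log axis for the 2 rRNA and 13 protein-coding genes in map order, with 1 point per library (circles, HO + Vehicle; squares, HO + β-SITO). mt-Co1 lies at 6054 to 10327 CPM, whereas the block from mt-Co2 to mt-Nd4l lies below 50 CPM in every library and is on the same strand as its neighbours.

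The 2 rRNA genes sit at the start of the plus-strand transcript, ahead of the protein-coding genes, and moved against them. mt-Rnr1 (bases 70 to 1024), the 12S rRNA of the small mitochondrial subunit, had 1984, 1805 and 1987 CPM with vehicle and 423, 414 and 434 CPM with β-SITO. The groups were far apart, each with little spread, and the level was 4.54-fold lower with treatment (log2 fold change -2.18, SE 0.06, edgeR adjusted p = 1.04e-13). mt-Rnr2 (bases 1094 to 2675), the 16S rRNA of the large subunit, had 1501, 1367 and 1567 CPM against 869, 858 and 843 CPM, a smaller difference of 1.73-fold (log2 fold change -0.79, SE 0.06, edgeR adjusted p = 2.81e-08). The 2 rRNAs also changed places, with 1.27 to 1.32 counts of mt-Rnr1 for each of mt-Rnr2 in the vehicle libraries and 0.483 to 0.514 in the treated ones.

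The study names an mRNA library kit, and in such libraries rRNA is a remainder, so these counts measure captured rRNA and not all of it. As a value beside them, the nuclear 18S row Rn18s-rs5, chosen after its values were seen, held 0.633 to 0.786% of counts with vehicle and 0.621 to 0.644% with β-SITO. These shares overlapped. On the CPM scale Rn18s-rs5 was 1.22-fold lower with treatment (log2 fold change -0.28, SE 0.08, edgeR adjusted p = 0.00429), a smaller point estimate than that of either mitochondrial rRNA. Its CPM groups did not overlap, at 6689 to 8326 with vehicle and 5922 to 6105 with β-SITO, as was so for 35.8% of all genes. The part of rRNA carry-over in the mitochondrial rRNA result was not tested.

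Per length, the protein-coding genes fell into groups of unlike level. mt-Co1 stood above all others with 3918 to 4453 CPM per kb in the vehicle libraries. mt-Nd1 (569 to 663) and mt-Nd6 (577 to 641) overlapped next, then mt-Nd5 (495 to 550.0) and mt-Cytb (464 to 514) overlapped each other, and mt-Nd2 (314 to 368) lay above mt-Nd4 (278 to 293) without overlap. Then came mt-Co2, mt-Co3, mt-Nd3, mt-Atp6 and mt-Nd4l with group means between 6.81 and 27.3 CPM per kb, and last mt-Atp8 with 0.922. In the treated libraries mt-Nd5, mt-Cytb, mt-Nd1 and mt-Nd6 ran together, with means of 1583, 1583, 1531 and 1522 CPM per kb, mt-Co1 had 6127, and the low block had 27.3 to 70.9.

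The 5 low genes mt-Co2, mt-Co3, mt-Nd3, mt-Atp6 and mt-Nd4l have near-identical copies in the nuclear genome over almost their whole length, as mt-Nd4 and mt-Co1 have over part of theirs. For mt-Atp8, the lowest, no annotated copy was found. Stretches of mitochondrial DNA inserted into nuclear chromosomes are common in mammals, and one on mouse chromosome 1 (bases 24650616 to 24655278, minus strand, coordinates of the deposited table) carries annotated pseudogenes of 7 genes in mitochondrial order. In GENCODE vM21 transcripts, Gm28661 matched mt-Co2 at 100% over 681 bases, Gm10925 matched mt-Atp6 at 100% over 678, Gm28437 matched mt-Co3 at 100% over 783 and Gm10222 matched mt-Nd4l at 100% over 294. Gm28438 matched mt-Nd3 at 99.7% over 345 bases. The remaining pair reached only part of their partner, Gm28439 the first 876 of 1378 bases of mt-Nd4 at 100% and Gm29216 the last 483 of mt-Co1 at 99.8%. The copies of mt-Co2 and mt-Atp6 on chromosome 1 are 233 bases apart, against 230 in the mitochondrial genome, where mt-Atp8 starts between them. Only annotated transcripts were searched, so an unannotated copy of mt-Atp8 would not have been found.

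The likeness is visible in 120 bases of COX2 coding sequence, positions 241 to 360 of mt-Co2, beside the copy on chromosome 1 (Gm28661) and a more diverged copy on chromosome 2 (Gm13341). Capitals mark letters that differ from the mitochondrial transcript, of which the first copy has 0 and the second 2.
mt-Co2: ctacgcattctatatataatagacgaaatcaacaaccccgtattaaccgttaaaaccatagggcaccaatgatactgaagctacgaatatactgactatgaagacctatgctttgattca
Gm28661: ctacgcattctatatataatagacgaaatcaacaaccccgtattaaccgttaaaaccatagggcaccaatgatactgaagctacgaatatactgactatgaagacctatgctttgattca
Gm13341: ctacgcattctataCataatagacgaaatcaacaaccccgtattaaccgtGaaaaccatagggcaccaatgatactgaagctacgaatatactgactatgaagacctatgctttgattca
For the end of mt-Co1, positions 1201 to 1320, the copy on chromosome 1 (Gm29216) again has 0 differences and the one on chromosome 2 (Gm13340) has 4.
mt-Co1: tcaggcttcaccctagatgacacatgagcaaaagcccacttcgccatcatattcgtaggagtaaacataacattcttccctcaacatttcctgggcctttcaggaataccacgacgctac
Gm29216: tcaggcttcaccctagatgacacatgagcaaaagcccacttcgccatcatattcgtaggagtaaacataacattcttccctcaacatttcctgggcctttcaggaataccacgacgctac
Gm13340: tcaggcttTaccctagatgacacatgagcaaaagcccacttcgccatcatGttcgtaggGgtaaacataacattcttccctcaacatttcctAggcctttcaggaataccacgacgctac

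Cut into overlapping windows of 150 bases, 97.0 to 99.8% of the windows of mt-Nd3, mt-Nd4l, mt-Atp6, mt-Co2 and mt-Co3 occurred letter for letter in a nuclear transcript. The share was 59.2% for mt-Nd4, 23.6% for mt-Co1 and 0 for mt-Nd1, mt-Nd2, mt-Nd5, mt-Nd6, mt-Cytb and mt-Atp8. The copies on chromosome 1 drew counts themselves. Gm28661 had 375, 352 and 398 counts with vehicle and 812, 701 and 769 with β-SITO, beside 293, 280 and 322 against 749, 585 and 621 for mt-Co2. Gm10925 had more counts than mt-Atp6 in every library, from 313 to 441 against 131 to 154 with vehicle, and Gm28438 had fewer than mt-Nd3, from 14 to 25 against 100 to 148.

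How reads with several equal matches were counted is not given in the sources used here, so the counts of the 7 genes with a copy on chromosome 1 are uncertain, and the part of this in their low level was not tested. The same may hold for mt-Atp8, mt-Ts1, mt-Td, mt-Tk, mt-Tg and mt-Tr, which lie between these genes, since only annotated transcripts were searched. The 7 copies were all called higher with β-SITO, against 33.0% of all genes. The smallest log2 fold change was 0.49 for Gm29216 (edgeR adjusted p = 0.000772), the copy of mt-Co1. The largest was 1.70 for Gm10222 (edgeR adjusted p = 5.20e-08), the copy of mt-Nd4l. Since counts of a gene and of its near-identical copy may come from the same transcripts, these calls are not separate from those of the mitochondrial genes. When each gene was summed with its copy, an alternative chosen after the data were seen, 12 of 12 protein-coding genes were still called higher and 10 more than 2-fold. The 5 tested genes without any shared window, mt-Nd1, mt-Nd2, mt-Nd5, mt-Nd6 and mt-Cytb, were 2.53- to 3.26-fold higher with β-SITO.

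**Figure D4:**
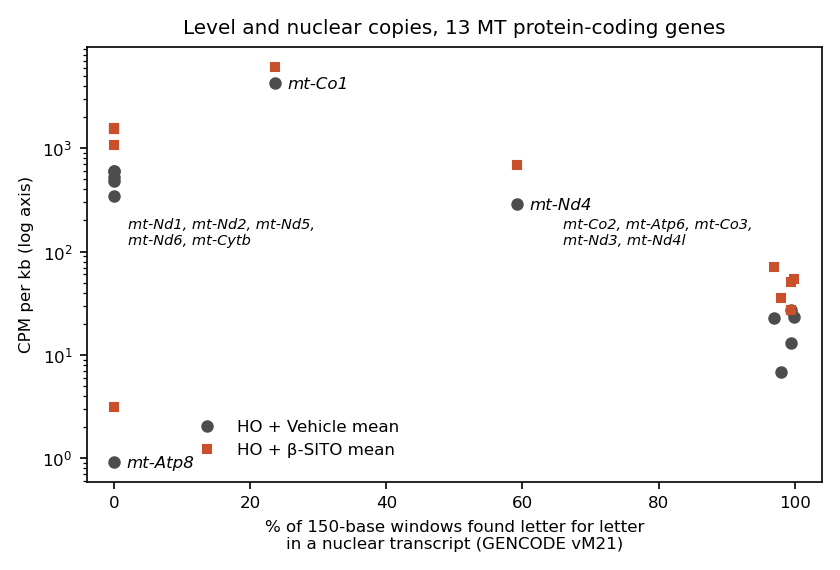
Mean CPM per kb (log axis; circles, HO + Vehicle; squares, HO + β-SITO; 3 libraries each) of the 13 mitochondrial protein-coding genes against the percentage of their 150-base windows found letter for letter in a nuclear transcript. The 5 genes with 97.0 to 99.8% shared windows have 6.81 to 70.9 CPM per kb, and mt-Atp8, with none among annotated transcripts, is lower still.

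Of the tRNAs, the asparagine, cysteine and proline tRNAs held 89.9 to 96.5% of the tRNA counts in every library. mt-Tn (bases 5089 to 5159, minus strand) had 92.9, 109 and 92.7 CPM with vehicle and 99.7, 105 and 100.3 CPM with β-SITO. The groups overlapped, with a log2 fold change of 0.05 (SE 0.07, edgeR adjusted p = 0.567). mt-Tc (bases 5192 to 5257, minus strand) had 31.6, 36.7 and 30.4 CPM against 35.4, 37.9 and 38.1 CPM, a log2 fold change of 0.17 (SE 0.08, edgeR adjusted p = 0.0712). These 2 genes are parted by 32 bases, the stretch known as the origin of light-strand replication, and they are the mitochondrial genes whose side of the threshold turned with scaling. With scaling by total counts alone their log2 fold changes were 0.19 (edgeR adjusted p = 0.0234) for mt-Tn and 0.32 (edgeR adjusted p = 0.00282) for mt-Tc. mt-Tc was also called without V2, at 0.26 (edgeR adjusted p = 0.00867), and without T4, at 0.21 (edgeR adjusted p = 0.0394).

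mt-Tp (bases 15356 to 15422, minus strand), the gene at the edge of the control region, had 49.8, 42.4 and 47.5 CPM with vehicle and 71.8, 84.3 and 87.6 CPM with β-SITO. The groups did not overlap and the log2 fold change was 0.80 (SE 0.08, edgeR adjusted p = 4.64e-07). mt-Ty, the tyrosine tRNA next to mt-Tc, had 2.78, 2.26 and 1.67 CPM against 2.004, 2.30 and 2.97 CPM, with overlap (log2 fold change 0.12, SE 0.24, edgeR adjusted p = 0.678). The 19 tRNA genes beside mt-Tn, mt-Tc and mt-Tp, mt-Ty included, together had 116, 131 and 101 counts in V1, V2 and V3 and 385, 454 and 454 in T4, T5 and T6.

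The tRNAs that rose most were among the sparsest. mt-Te (bases 14071 to 14139, minus strand), between mt-Nd6 and mt-Cytb, had 5, 3 and 4 counts with vehicle and 49, 60 and 52 with β-SITO, a log2 fold change of 3.48 (SE 0.32, edgeR adjusted p = 1.48e-07). mt-Tr (bases 9808 to 9875, plus strand), between mt-Nd3 and mt-Nd4l, had 3, 2 and 1 counts against 32, 36 and 18. Its groups lay far apart, at a ratio of 12.2 with a 95% counting interval of 5.37 to 34.1, and edgeR called it (adjusted p = 1.44e-05). Both neighbours of mt-Tr have copies on chromosome 1, and an unannotated copy of mt-Tr itself was not searched for, so its counts are uncertain. mt-Th (bases 11546 to 11612, plus strand), the histidine tRNA, had 14, 23 and 19 counts against 89, 107 and 63, a log2 fold change of 1.97 (SE 0.27, edgeR adjusted p = 9.84e-06). The remaining called tRNAs were mt-Tl1, mt-Tg, mt-Tl2, mt-Ts2 and mt-Tw, for leucine, glycine, leucine, serine and tryptophan, with log2 fold changes of 2.28, 2.06, 1.77, 1.48 and 1.36.

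By annotated strand, 7 of 7 tested plus-strand tRNAs were higher with β-SITO and 2 of 5 minus-strand ones, against 33.0% of all genes. Whether the counting used strand is not given, so reads of a minus-strand tRNA, mt-Te included, and of an antisense precursor cannot be told apart. The 3 that were not called, mt-Tn, mt-Tc and mt-Ty, are neighbours on the minus strand between mt-Nd2 and mt-Co1, and the difference between the strands was not tested. Of the 10 tRNA genes that failed the filter, mt-Tf, mt-Tv, mt-Ts1 and mt-Td had 0 counts in all 6 libraries, which allows up to 0.189 CPM in the shallowest library by the limit of 3 counts. That limit assumes that reads there were counted, which is uncertain for mt-Ts1 and mt-Td between mt-Co1 and mt-Co2. It is uncertain too for mt-Tv, which directly adjoins mt-Rnr1 and mt-Rnr2, and for mt-Tf beside mt-Rnr1. How reads that reach into 2 genes were counted is not given in the sources used here. This leaves the counts of all these short tRNA genes, and of mt-Atp8, uncertain. The other 6 (mt-Ti, mt-Tq, mt-Tm, mt-Ta, mt-Tk and mt-Tt) had between 0 and 14 counts per library. An mRNA library recovers few mature tRNAs, and counts of a tRNA and of a precursor that spans it cannot be told apart here.

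Relative to one another, the protein-coding genes did not rise evenly. mt-Co1 held 67.5, 66.6 and 67.4% of the protein-coding counts with vehicle and 49.4, 51.3 and 51.8% with β-SITO, the groups far apart. mt-Nd5 went from between 9.38 and 9.96% to between 14.3 and 16.3%, and mt-Cytb from between 5.43 and 5.83% to between 9.11 and 10.8%. There were 11.4 to 12.4 counts of mt-Co1 for each of mt-Cytb with vehicle and 4.58 to 5.69 with β-SITO. With the protein-coding total as the library size, edgeR called mt-Co1 relatively lower (log2 fold change -0.40, SE 0.15, adjusted p = 0.00887) and 9 genes relatively higher, from 0.31 for mt-Co3 to 1.43 for mt-Nd4l, while mt-Co2 and mt-Atp6 were not called. Without V1 the 9 became 6, with mt-Nd1, mt-Co3 and mt-Nd4 no longer past the threshold. On that scale 76.0% of all genes tested were lower and 8.39% higher. Both rRNAs were relatively lower, mt-Rnr1 by a log2 fold change of -3.10 and mt-Rnr2 by -1.70. Since mt-Co1 makes up most of the reference, leaving it out of the library size turned the counts to 1 relatively higher and 5 relatively lower.

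The nuclear genes that make and handle mitochondrial RNA were grouped by role. In 7 lists written for this comparison, 116 genes were tested, of which 16 (13.8%) were higher and 44 (37.9%) lower with β-SITO, against 33.0% and 33.8% of all genes, with a median log2 fold change of -0.17 against -0.01 over all genes. With total counts alone, which raised the median of all genes by 0.15, they were 26 higher and 24 lower. With that scaling 6175 of all 14799 genes were higher and 3816 lower, and the counts given below for it are to be read beside these.

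Transcription of the mitochondrial genome needs the polymerase Polrmt, the packaging and initiation factor Tfam, the initiation factor Tfb2m and the elongation factor Tefm. Of 11 tested genes of this list, 1 (9.1%) was higher and 4 (36.4%) lower, against 33.0% and 33.8% of all genes. With total-count scaling 0 were lower, and without V2, V3 or T6 1 was. Polrmt had 13.9, 13.8 and 9.98 CPM with vehicle and 14.3, 11.6 and 12.96 CPM with β-SITO, overlapping (log2 fold change 0.05, SE 0.13, edgeR adjusted p = 0.765). Tfam had 26.2, 30.1 and 29.4 CPM against 23.2, 27.2 and 22.4 CPM, also overlapping. Its log2 fold change of -0.24 (edgeR adjusted p = 0.0306) missed the threshold with DESeq2 (adjusted p = 0.0602), with total-count scaling (edgeR adjusted p = 0.402) and without V2, V3, T4 or T6. Tfb2m rose with a log2 fold change of 0.32 (SE 0.09, edgeR adjusted p = 0.00811) and Tefm fell with -0.42 (SE 0.12, edgeR adjusted p = 0.0071), the latter not past the threshold with total-count scaling (edgeR adjusted p = 0.0626).

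The list of RNA stability and decay had 15 tested genes, 1 (6.7%) higher and 9 (60%) lower, against 33.0% and 33.8% of all genes. Its median log2 fold change was -0.28. With total-count scaling 2 were higher and 4 lower, where 6175 of all 14799 genes were higher and 3816 lower. Pnpt1, the mitochondrial polynucleotide phosphorylase that degrades RNA together with the helicase Supv3l1, had 65.3, 75.3 and 75.8 CPM with vehicle and 16.0, 13.8 and 12.7 CPM with β-SITO. The groups were far apart, with a log2 fold change of -2.35 (SE 0.09, edgeR adjusted p = 3.93e-12), and it was one of 2 genes of the 7 lists that changed more than 2-fold. Slirp, which with Lrpprc binds and stabilises mitochondrial mRNAs, fell from 4.74, 5.20 and 4.03 CPM to 2.57, 2.59 and 2.19 CPM, a log2 fold change of -0.93 (SE 0.18, edgeR adjusted p = 0.000293). Lrpprc itself had 58.7, 52.2 and 59.5 CPM against 51.3, 51.9 and 53.2 CPM and was not called (log2 fold change -0.12, edgeR adjusted p = 0.117), though it passed without V2, at -0.18 (edgeR adjusted p = 0.025). Grsf1, an RNA-binding protein of mitochondrial RNA granules, was the gene that rose, with 0.22 (edgeR adjusted p = 0.00776).

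Processing, modification and polyadenylation had 26 tested genes, 1 (3.8%) higher and 11 (42.3%) lower (3 and 8 with total-count scaling), against 33.0% and 33.8% of all genes. Hsd17b10, a subunit of the enzyme that cuts the 5′ ends of mitochondrial tRNAs, rose with a log2 fold change of 0.49 (edgeR adjusted p = 2.14e-05). Trnt1, which adds the CCA end to tRNAs of both compartments, fell with -0.80 (edgeR adjusted p = 1.86e-07), and the tRNA methyltransferase Nsun2 fell with -0.75 (edgeR adjusted p = 2.99e-08). Replication and maintenance of mitochondrial DNA had 18 tested genes, 3 (16.7%) higher and 5 (27.8%) lower. The balance turned to 6 and 2 with total-count scaling. The polymerase subunits Polg2 at 0.84 and Polg at 0.32 were among the rises and Top3a at -0.51 among the falls.

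Of 22 tested aminoacyl-tRNA synthetase genes, 5 (22.7%) rose and 8 (36.4%) fell, near the 33.0% and 33.8% of all genes, and the counts turned to 8 and 5 with total-count scaling. The largest change was that of Kars, which encodes the lysyl-tRNA synthetase of cytosol and mitochondria alike, from 292, 298 and 299 CPM to 120, 114 and 122 CPM (log2 fold change -1.32, SE 0.06, edgeR adjusted p = 1.20e-11). Ears2, for glutamate, fell with -0.67, and Mars2 and Vars2, for methionine and valine, rose with 0.75 and 0.63. The 13 translation factors gave 2 rises (15.4%) and 3 falls (23.1%). The rises were Guf1 at 0.32 and Mtrfr at 0.25, the latter not past the threshold with DESeq2 or without V1, V2, T4 or T5. Among the falls were the elongation factor Gfm1 at -0.43 and the recycling factor Gfm2 at -0.38. Of 77 mitochondrial ribosomal protein genes, 3 (3.9%) rose, among them Mrpl34 at 0.62 and Mrps26 at 0.29. Another 44 (57.1%) fell, the most Mrpl27 at -1.14 and Mrpl38 at -1.02, and the median of the list was -0.24. With total-count scaling 14 rose and 29 fell.

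Nuclear genes named as subunits of the oxidative phosphorylation complexes, picked by the start of their symbols (Nduf, Sdh, Uqcr, Cox4 to Cox8 and Atp5), numbered 84 tested genes. Of these 15 (17.9%) were higher and 11 (13.1%) lower, against 33.0% and 33.8% of all genes, with a median log2 fold change of 0.00. With total-count scaling 37 were higher and 3 lower, where 6175 of all 14799 genes were higher and 3816 lower. Without V2, 27 were higher. The largest rises were Cox4i2 at 1.89 and Cox6b2 at 1.48, both alternative isoforms of complex IV subunits, and the largest falls were the complex I subunits Ndufb1 at -0.65 and Ndufs3 at -0.43. Of 11 regulators of mitochondrial biogenesis, 3 (27.3%) rose and 4 (36.4%) fell, near the shares of all genes, or 4 and 3 with total-count scaling. The coactivator Ppargc1a was not called, with 14.7, 11.97 and 11.8 CPM against 9.15, 13.6 and 13.5 CPM (log2 fold change -0.09, edgeR adjusted p = 0.613). Ppara at 0.63 and Ppargc1b at 0.52 rose, neither of them past the threshold without V2, T5 or T6. Ppargc1b also missed it without V3 and with DESeq2 (adjusted p = 0.0684). The nuclear receptors Esrrb at -0.87 and Esrrg at -0.56 fell.

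The label of the cells was compared with marker genes, since heart cells differ in mitochondrial content. None of the 14 cardiomyocyte markers was at 0, and the lowest had 174 counts in its lowest library. Their summed share of all counts was 0.805, 0.707 and 0.706% in V1, V2 and V3 and 0.693, 1.18 and 1.20% in T4, T5 and T6, overlapping because T4 was the lowest of all 6. The 10 fibroblast markers held more, at 3.69 to 3.90% with vehicle and 5.74 to 5.92% with β-SITO, and none of them was at 0 either. Shares of macrophage markers were 0.131 to 0.145% against 0.302 to 0.371%, of smooth muscle and pericyte markers 0.104 to 0.113% against 0.200 to 0.226%, and of endothelial markers 0.0661 to 0.0738% against 0.127 to 0.129%, with no marker at 0.

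Among 14 cardiomyocyte markers 6 (42.9%) were called higher and 2 (14.3%) lower (Tnnt2 at -0.47 and Pln at -0.42), and 11 were called higher without T4. Myh6, the adult cardiac myosin heavy chain, had 2274, 1726 and 1917 CPM against 2023, 3268 and 3256 CPM, and Actc1, cardiac actin, 1626, 1409 and 1346 CPM against 973, 1689 and 1734 CPM. Myh6 was called higher (log2 fold change 0.53, edgeR adjusted p = 0.00426) and Actc1 was not (0.00, edgeR adjusted p = 0.981). Of the other lists, against 33.0% of all genes higher and 33.8% lower, 7 of 10 fibroblast markers were higher (Col3a1 at 0.85 and Col1a1 at 0.42) and 2 lower (Dcn at -0.52 and Postn at -0.22). All 8 smooth muscle and pericyte markers were higher (Acta2 at 0.99 and Pdgfrb at 0.62), as were 7 of 8 endothelial ones (Cdh5 at 1.84, while Eng fell with -0.39). Of 12 macrophage markers 8 were higher (Mrc1 at 4.79 and Lyz2 at 1.12) and 2 lower (Fcgr1 at -2.18 and Cd14 at -1.56). The lower markers other than Eng were named after their values were seen. T4 was the lowest treated library in the cardiomyocyte share and also in mt-Nd2, mt-Co1, mt-Nd4l, mt-Nd4, mt-Nd5, mt-Nd6 and mt-Cytb, 7 of the 12 tested protein-coding genes, and it was the highest in the other 5. Without T4, log2 fold changes were 1.33 for mt-Nd1, 1.73 for mt-Nd5, 1.49 for mt-Nd6 and 1.73 for mt-Cytb, each either larger than with T4 or within 0.01 of it. They were smaller without T4 for mt-Co2 (0.80), mt-Atp6 (0.99), mt-Co3 (1.12) and mt-Nd3 (1.54), of which mt-Atp6 was then no longer over 2-fold. The part of the cell mixture in the mitochondrial results was not tested.

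**Figure D5:**
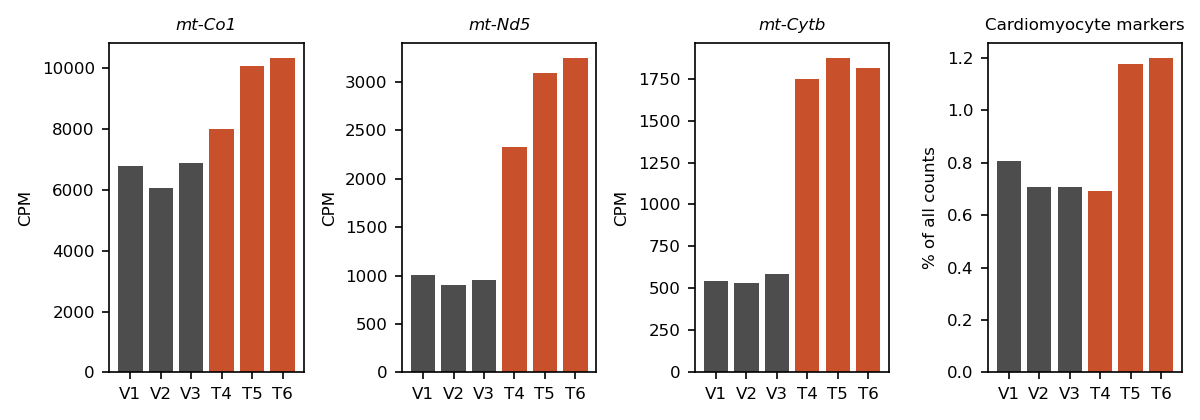
CPM of mt-Co1, mt-Nd5 and mt-Cytb and the summed share of 14 cardiomyocyte markers (% of all counts) in each of the 6 libraries, with grey bars for HO + Vehicle and orange bars for HO + β-SITO. T4 is low among the treated libraries for mt-Co1 (7999 CPM), mt-Nd5 (2324 CPM) and the markers (0.693%), and close to T5 and T6 for mt-Cytb (1747 CPM).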

How the data were processed

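Total RNA of the 6 NMCM libraries was sequenced with an mRNA kit named ABclonal in the study's methods and Illumina TruSeq in the sample labels. Values were used as deposited by the authors, as unnormalized counts per gene in 1 featureCounts table for all libraries, with FastQC, HISAT2 and build GRCm39 listed in the submitters' processing notes; versions, strand and multi-mapping options are not given in the sources used here. Library totals were 16694734 to 18460522 counts.

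Expression as CPM and fold changes with their tests came from R 4.3.3 with edgeR 4.0.16 (filterByExpr, TMM, quasi-likelihood test, Benjamini-Hochberg over 14799 genes), fitted on the whole table and checked on simulated counts. Alternatives were DESeq2 1.42.0, voom in limma 3.58.1, other scalings and filters on low counts, and leaving out each library. Copies were found with blastn 2.17.0 (at least 90% identity over at least 50 bases). Intervals for ratios of counts are exact. The members, gene lists and tests were chosen with earlier results of these data known. All mitochondrial genes were to be described, of each nuclear list up to 2 called genes with the largest rise and fall plus Polrmt, Tfam, Tfb2m, Tefm, Lrpprc, Slirp, Pnpt1 and Ppargc1a, and of each marker list the 2 most abundant. Kars1 and Gars1 were matched by older symbols. One gene named by this rule is not reported here.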

Additional observations from a re-analysis of the deposited data

How the results depend on the processing

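Over all alternatives, 12 or 13 protein-coding genes were called higher and none lower, and both rRNAs stayed lower, with mt-Rnr1 between -2.22 and -2.03 (log2) and mt-Rnr2 between -0.84 and -0.64. Without T4, 9 protein-coding genes were over 2-fold. The differences in share were 0.956 to 1.15 percentage points for protein-coding genes and -0.198 to -0.182 for rRNA as single libraries were left out. Called tRNAs over 2-fold numbered 5 with a mean of at least 1 CPM, since fewer were tested, and 11 without a filter. Nuclear genes of the 7 lists gave 26 higher and 24 lower with library size only, and 26 higher and 26 lower with upper quartile scaling. These scalings raised the median of all genes by 0.15 and 0.14 and the share of calls that were higher from 49.4% to 61.8% and 61.4%. Against the protein-coding total without mt-Co1, 1 gene was relatively higher and 5 lower. Signs reversed for mt-Atp6 (-0.41), mt-Co3 (-0.28) and mt-Nd4 (-0.26), each called lower there. They also reversed for mt-Nd1 (-0.16, edgeR adjusted p = 0.214) and mt-Nd6 (-0.17, edgeR adjusted p = 0.162), which were not called. Against all mitochondrial counts 0 genes were relatively lower and mt-Co2 reversed to 0.32. Both follow from the reference used. Leaving out single libraries gave 6 to 9 relatively higher. Of 1157 values of named genes under alternatives, 1105 kept their side of the threshold, 36 lost the call, 10 gained it and 6 reversed; signs of uncalled values near 0, such as mt-Ty (0.12, and as low as -0.04), could change within the first group. No paired analysis was possible because the replicate names of the 2 groups share no number. Depth limits the sparse genes: 3 counts equal 0.154 to 0.189 CPM.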
